A study of Mus musculus with 8 samples.

Results

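The genes described here are 35 neighbours of Rosa26 on mouse chromosome 6, the locus into which reporter and activating alleles are usually placed. They were chosen by name as genes around that locus, not by any measured value, and each was matched to 1 row of the authors' deposited table and by its identifier to the count table, so 35 of 49671 gene identifiers are covered. RNA was sequenced from YFP-positive cells sorted from whole lungs of adult mice, 4 samples of genotype Gli2creERT2-tdt:R26RYFP (control) and 4 of genotype Gli2creERT2-tdt:R26RYFP/SmoM2. The Gli2 allele drives a Cre that works after tamoxifen, so the reporter YFP marks cells that had Gli2 active at that time. The second group also carries SmoM2, a Smoothened protein that signals without Hedgehog ligand. R26 is the usual short name of Rosa26, so both groups carry an inserted allele there, and the controls are not a group with an untouched locus. Tamoxifen was injected on 5 days, 200 mg/kg each day, by the label of the SmoM2 animals, and neither strain background, exact age, the dose of the controls nor the number of inserted copies is given in the sources used here. The 8 sample titles carry different numbers, but no label used here says that each is a separate animal, so p-values measure the spread between these samples, which may be in part technical.

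Rosa26 was found as a gene-trap site that is active in nearly every cell type. Knock-in cassettes are usually placed in the first intron of its noncoding transcript, Gt(ROSA)26Sor, where a stop signal flanked by loxP sites keeps the cassette silent until Cre removes it. A cassette of this kind with its own transcript end interrupts the host transcript, and strong promoters or foreign flanking sequence carried along from the embryonic stem cell can in general alter genes nearby. That is why the neighbours of a knock-in site are of interest in a comparison in which the 2 groups differ in what is inserted there. None of this is a result of these data.

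In the mm10 build (GRCm38, GENCODE annotation), Gt(ROSA)26Sor lies on the minus strand of chromosome 6 from 113067428 to 113077333. Setd5 starts 32 bases from the start of Gt(ROSA)26Sor on the opposite strand, so both are transcribed away from a shared region. Thumpd3 runs towards the locus from the other side, and its end shares 145 exonic bases with Gt(ROSA)26Sor on the opposite strand. The 35 genes span 113046225 to 115805557, which is 2.76 Mb, and 34 of them lie on the Setd5 side. The first 2 exons of Gt(ROSA)26Sor are shown because the intron between them, 5632 bases in this transcript, is where cassettes usually go. Capitals mark the 10 exon bases on each side of that intron. Exon 1 is chr6:113077068-113077210 and the start of exon 2 is chr6:113071294-113071435, both on the minus strand and read from the GENCODE transcript. This transcript starts inside the gene bounds given above, and the 32 bases to Setd5 are counted from the gene start at 113077333.
Gt(ROSA)26Sor exon 1: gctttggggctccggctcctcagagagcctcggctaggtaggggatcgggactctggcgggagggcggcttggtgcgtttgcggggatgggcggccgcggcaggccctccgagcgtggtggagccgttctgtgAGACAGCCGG
Gt(ROSA)26Sor exon 2, first bases: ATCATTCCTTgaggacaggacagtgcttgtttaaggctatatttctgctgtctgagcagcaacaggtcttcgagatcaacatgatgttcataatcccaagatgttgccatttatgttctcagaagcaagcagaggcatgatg

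Upstream sequences of 250 bases are printed for 2 neighbours, Brk1 and Irak2. Among neighbours with a mean of at least 5 CPM (defined below), Brk1 varied least within groups, and Irak2 varied most after Syn2. They are the bases before the RefSeq start in GRCm38.p6, chr6:113604522-113604771 and chr6:113638217-113638466, both on the plus strand, with each CpG in capitals.
Brk1 upstream: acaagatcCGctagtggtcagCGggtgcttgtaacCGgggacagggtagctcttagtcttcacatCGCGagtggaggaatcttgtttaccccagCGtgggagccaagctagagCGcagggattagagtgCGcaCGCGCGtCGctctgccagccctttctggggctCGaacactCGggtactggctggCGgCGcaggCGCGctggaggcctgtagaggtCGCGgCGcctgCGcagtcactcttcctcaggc
Irak2 upstream: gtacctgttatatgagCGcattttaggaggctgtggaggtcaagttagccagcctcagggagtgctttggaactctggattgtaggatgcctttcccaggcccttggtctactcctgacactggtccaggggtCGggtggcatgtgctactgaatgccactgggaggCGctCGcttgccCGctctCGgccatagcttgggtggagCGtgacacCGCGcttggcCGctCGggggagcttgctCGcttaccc
The Brk1 sequence holds 22 CpG sites and a GC share of 63.2%, and the Irak2 sequence 12 CpG sites. RefSeq upstream windows were matched for 31 of the 35 genes (45 windows, since some genes have several starts), with a median of 12 CpG sites against 6 over all 32851 windows. The GLI binding motif GACCACCCA, searched on both strands, was in 0 of the 45 windows and in 0.225% of all windows. Its 7-base core CCACCCA, which lies inside that motif, was in 4 windows (8.89%, against 8.11% of all windows), belonging to Il17rc, Irak2, Ghrl and Hrh1. A match is a description of letters, and Cand2, Fancd2, Mkrn2 and Tamm41 had no entry. The Setd5 window (chr6:113104685-113104934) lies inside the gene, downstream of its GENCODE start at 113077365. The start region shared by Setd5 and Gt(ROSA)26Sor was therefore not searched. The windows of Atg7, Il17re and Vgll4 also lie inside their genes, as does the Hrh1 window that holds CCACCCA.

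The deposited estimated counts summed to 91616181 to 111615243 units per library, where 1 fragment was taken to add 5 units, and a count of 0 allows up to 3 fragments (15 units, 0.127 to 0.171 CPM, counts scaled to a common library total). CPM values below use library sizes scaled by trimmed means (TMM). Stromal markers led the sorted cells: the 8 genes of that list summed to 40736 to 60767 CPM in controls and 43504 to 70542 CPM in SmoM2-labelled libraries, Gsn and Col3a1 being the highest. Epithelial markers (10 genes) summed to 343 to 1371 and 279 to 880.2 CPM, immune markers (12 genes) to 518 to 732 and 523 to 1557 CPM. Mesothelial markers (10 genes) summed to 291 to 529 CPM in controls and 117 to 244 CPM in the other group. All 10 had a lower mean there and the sums did not overlap. The Hedgehog target Gli1 averaged 99.3 ± 32.9 CPM in control and 101 ± 21.5 CPM (SD, n = 4 each) in the other group, so the latter is called SmoM2-labelled throughout. In bulk samples, fewer cells of a type and less RNA per cell cannot be told apart.

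The Rosa26 transcript itself split the libraries, but not along the group labels. Gt(ROSA)26Sor was at 6.60, 58.7, 7.57 and 51.0 CPM in controls 1 to 4 and at 3.69, 26.7, 3.30 and 4.16 CPM in SmoM2-labelled libraries 1 to 4. Controls 2 and 4 and SmoM2-labelled library 2 were high, the other 5 libraries were low, and the groups overlapped. Within the SmoM2-labelled group library 2 stood apart, and the highest library was 17.8 times the lowest over all 8. The control mean was 31.0 ± 27.8 CPM and the SmoM2-labelled mean 9.45 ± 11.5 CPM (SD, n = 4 each). In edgeR's quasi-likelihood test the log2 fold change was −1.72 with a standard error (SE) of 0.96, a 95% interval from −3.91 to 0.48 and an adjusted p of 0.9999. Leaving out SmoM2-labelled library 2 gave −3.06, leaving out control 2 gave −1.21, and leaving out the 3 high libraries together gave −0.94, none past the threshold. The 3 high libraries were 2 female (controls 2 and 4) and 1 male by Xist and Y-linked genes, each group holding 2 libraries of each sex. The fit without these 3 libraries drops them by the level of Gt(ROSA)26Sor itself, so its −0.94 is not a separate check. It compares controls 1 and 3, both male, with SmoM2-labelled libraries 1 (male), 3 and 4 (both female), so group and sex are partly mixed. The deposited table gives 1 value per gene, so reads of exon 1 and of the later exons cannot be told apart here.

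**Figure D1:**
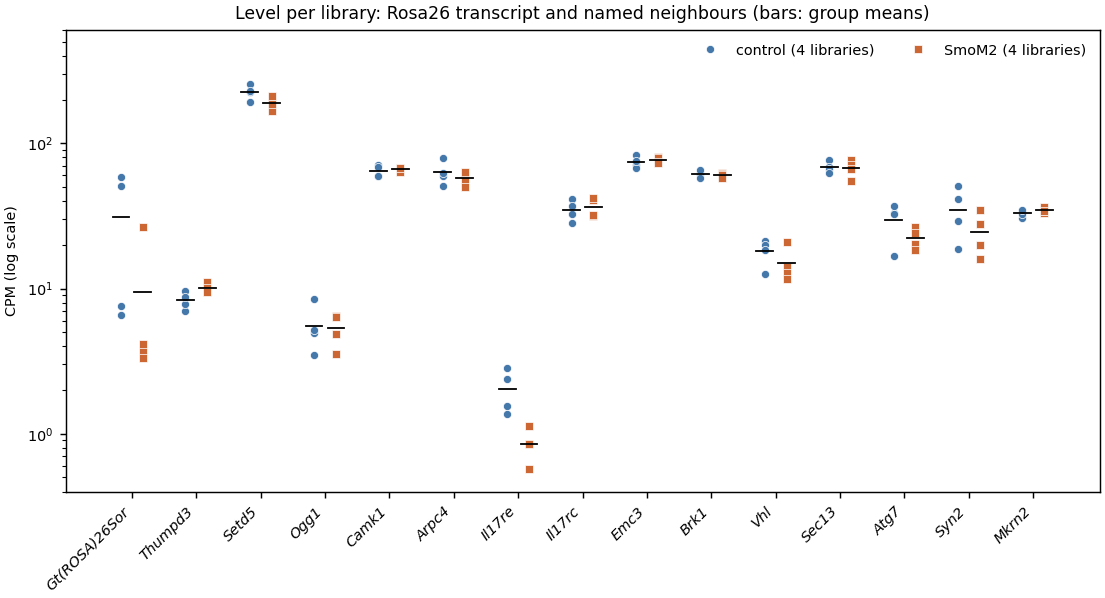
Level in CPM (log scale) of the Rosa26 transcript and the 14 neighbours described by library, with a point for each of 4 control and 4 SmoM2-labelled libraries and a bar for each group mean. Gt(ROSA)26Sor runs from 3.30 to 58.7 CPM with both groups mixed, Il17re is the one neighbour whose groups do not overlap, and the others overlap.

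The 35 neighbours ranged from barely detected to abundant. By mean CPM over the 8 libraries, 7 were at 50 or above, 16 from 5 to 50, 6 from 1 to 5 and 6 under 1. On the scale of level per exon length, scaled to the same total in every library, Brk1 was highest at 191 (range over 8 libraries 170.5 to 213), followed by Arpc4 at 88.5 (74.5 to 118), Emc3 at 76.9 (65.3 to 85.1), Sec13 at 72.8 (61.9 to 83.0) and Il17rc at 45.6 (35.9 to 54.0). The ranges of Arpc4, Emc3 and Sec13 overlapped, so their order is not set by these libraries. Brk1 is a small subunit of the WAVE complex that switches on actin branching, Arpc4 a subunit of the Arp2/3 complex that builds the branches, Emc3 part of the complex that inserts membrane proteins in the endoplasmic reticulum, and Sec13 a coat protein of the vesicles that leave it.

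At the other end, 2 genes of nervous tissue were too low to be tested. Slc6a11, a transporter for the neurotransmitter GABA, was at or under the limit of 3 fragments in all 8 libraries, and Atp2b2, a calcium pump of neurons and hair cells, in 6 of 8. Each was at 0 in several libraries, which says only that no more than 3 fragments were there. The remaining 33 genes passed the expression filter and were tested.

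No neighbour passed the test between SmoM2-labelled and control libraries. Of the 33 tested neighbours, edgeR's quasi-likelihood test called 0 at an adjusted p under 0.05, where it called 0% of the 20162 genes tested. At an unadjusted p under 0.05 it counted 1 of the 33, in the lower direction, against 3.75% of all genes (1.74% higher, 2.01% lower). DESeq2 called 0 of the 35 (0.275% of the genes to which it gave an adjusted p), and the authors' deposited table lists 0 of the 35 with an adjusted p under 0.05 (0.0498% of its genes). The groups did not overlap for 1 gene, Il17re, against 2.44% of all genes (1.02% higher, 1.42% lower). The SmoM2-labelled mean was higher for 16 and lower for 17, where 49% of all genes tested were higher. The median log2 fold change of the 33 was −0.02, beside 0.00 over all genes tested.

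**Figure D2:**
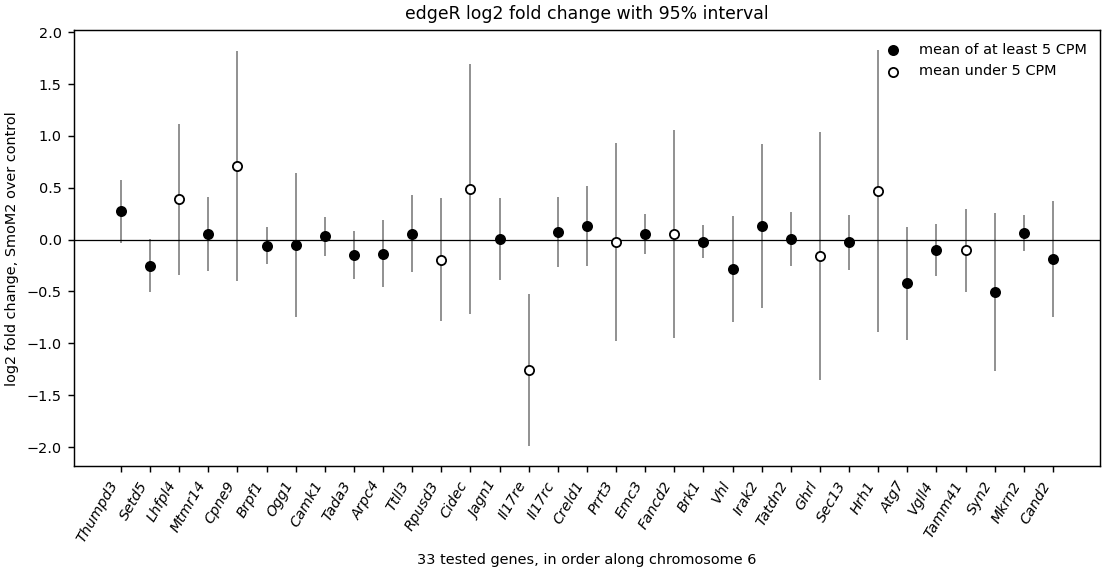
Log2 fold change, SmoM2-labelled over control, of the 33 tested neighbours in order along chromosome 6, with 95% intervals from edgeR. Filled points have a mean of at least 5 CPM and open points less. Il17re at −1.26 is the one point whose interval does not reach 0.

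The intervals set bounds on what could have been missed. Among the 23 neighbours with a mean of at least 5 CPM, log2 fold changes ran from −0.51 (Syn2) to 0.27 (Thumpd3). For 22 of these 23 the whole 95% interval lay within 1 on the log2 scale, Syn2 being the exception, and for 14 it lay within 0.5. Over all 11395 genes of at least 5 CPM, 88.7% had an interval within 1. A difference beyond 0.25 in either direction was seen for 5 of the 23 (Thumpd3, Setd5, Vhl, Atg7 and Syn2), against 16.8% of genes of that level.

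The genes next to the locus had differences of opposite sign, and neither passed the test. Setd5, a chromatin regulator with a SET domain, was at 193, 224, 254.0 and 227 CPM in controls 1 to 4 and at 166, 190.0, 185 and 212 CPM in SmoM2-labelled libraries 1 to 4. All 4 SmoM2-labelled values lay below those of controls 2 to 4, but 1 of them (library 4) was above control 1. The means were 225 ± 25.04 and 188 ± 19.2 CPM (SD, n = 4 each). This is a log2 fold change of −0.25 (SE 0.11, interval −0.51 to 0.00, unadjusted p 0.051, adjusted p 0.9999 in edgeR). Without the 3 libraries high in Gt(ROSA)26Sor its log2 fold change was −0.26.

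Thumpd3, a methyltransferase for transfer RNA, was at 9.56, 7.03, 7.88 and 8.73 CPM in controls and at 11.1, 10.1, 9.45 and 9.45 CPM in SmoM2-labelled libraries. Control 1 reached above the lower SmoM2-labelled values, so the groups overlapped by that library. Its means were 8.30 ± 1.09 and 10.03 ± 0.787 CPM, with a log2 fold change of 0.27 (SE 0.13, interval −0.03 to 0.58, adjusted p 0.9999 in edgeR). Thumpd3 shares exonic bases with Gt(ROSA)26Sor on the other strand and no source used here states counting by strand, so reads from that overlap cannot be told apart. Of the 2 libraries with the most Gt(ROSA)26Sor, control 2 was the lowest of all 8 in Thumpd3 and control 4 was not extreme.

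Other regulators of chromatin and transcription near the locus had small negative values. Brpf1, a scaffold of histone acetyltransferase complexes, averaged 40.5 ± 3.18 and 38.9 ± 0.629 CPM, Tada3, a subunit of the SAGA and ATAC acetyltransferases, 18.9 ± 1.198 and 17.05 ± 1.66 CPM, and Vgll4, a TEAD cofactor that opposes YAP, 67.8 ± 7.80 and 63.2 ± 6.19 CPM. With Setd5 all 4 members of this group had a lower SmoM2-labelled mean and 0 passed the test, with a median log2 fold change of −0.13. Partners of these proteins in acetyltransferase and repressor complexes (18 genes, 18 tested) were 10 higher and 8 lower with 0 called and a median of 0.01, and the corepressor Ncor1 averaged 148 ± 11.4 and 161 ± 13.4 CPM. The TEAD and YAP list around Vgll4 (18 tested) was 8 higher and 10 lower, 0 called, with a median of −0.03. Its target Ccn2 averaged 1381 ± 271 and 1847 ± 452 CPM, and its target Ccn1 3853 ± 1035 and 3408 ± 1178 CPM.

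Il17re was the 1 neighbour of the 33 tested with no overlap of the groups and with an unadjusted edgeR p under 0.05. The shares over all genes tested are 2.44% and 3.75%, so 1 of 33 is near the background for each. Il17re encodes a receptor subunit for the cytokine IL-17C, which epithelial cells are known to use, and it starts 381 kb from the start of Gt(ROSA)26Sor (chr6:113458484-113470758). It was at 2.37, 1.55, 2.83 and 1.38 CPM in controls 1 to 4 and at 1.13, 0.845, 0.853 and 0.568 CPM in SmoM2-labelled libraries 1 to 4. Every SmoM2-labelled library lay below every control. The means were 2.03 ± 0.688 and 0.849 ± 0.229 CPM (SD, n = 4 each), which correspond to about 40.1 and 17.1 fragments per library, so counting error is large. In edgeR its log2 fold change was −1.26 (SE 0.32, interval −1.99 to −0.52), with an unadjusted p of 0.00398 and an adjusted p of 0.9999, so it did not pass. DESeq2 gave an adjusted p of 0.0658, the lowest of the alternatives, which otherwise gave 0.674 to 0.99996, and the authors' deposited table an unadjusted p of 0.00125 and an adjusted p of 0.686. Leaving out 1 library at a time gave −1.43 to −1.06.

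The genes on each side of Il17re had overlapping groups. Il17rc, which encodes the receptor subunit for IL-17A and IL-17F and starts 668 bases after Il17re ends on the same strand, was at 41.6, 28.4, 32.4 and 37.0 CPM in controls and at 40.7, 41.8, 31.7 and 32.0 CPM in SmoM2-labelled libraries. The groups overlapped over most of their range, with means of 34.8 ± 5.73 and 36.5 ± 5.45 CPM and a log2 fold change of 0.07 (SE 0.15, interval −0.27 to 0.41). Jagn1, needed for secretion in neutrophils and lying on the other side, averaged 14.0 ± 3.21 and 14.1 ± 1.48 CPM (log2 fold change 0.01, SE 0.17). Per exon length Il17re was at 0.833 and Il17rc at 45.6. Mesothelial transcripts and some endothelial and epithelial transcripts also had lower means in SmoM2-labelled libraries. The keratins Krt8 and Krt18 averaged 11.2 ± 3.40 and 5.83 ± 1.33 CPM and 8.85 ± 2.65 and 4.597 ± 0.750 CPM, with no overlap of the groups for either. In the epithelial list 8 of 10 genes had a lower SmoM2-labelled mean (median log2 fold change −0.46), while Scgb1a1 and Abca3 had a higher one. Sftpc and Epcam overlapped widely between the groups. Sftpc was at 992 CPM in control 4 and at 162 to 207 CPM in controls 1 to 3. In the endothelial list 9 of 12 genes had a lower SmoM2-labelled mean (median log2 fold change −1.05), while Tek, Ramp2 and Erg had a higher one. Esam averaged 9.75 ± 3.79 and 3.85 ± 0.967 CPM, Kdr 23.1 ± 7.87 and 12.4 ± 4.05 CPM, and Tek 37.2 ± 15.1 and 59.6 ± 29.9 CPM. For Cdh5, Pecam1, Cldn5, Tie1 and Egfl7 control 4 alone was high, so their lower SmoM2-labelled means rest largely on that library. Esam, Vwf and Emcn were also highest in control 4, while Kdr was highest in control 3. Cdh5 was at 44.4 CPM in control 4 and at 4.49, 8.60 and 7.47 CPM in controls 1 to 3. Cldn5 was at 16.6 CPM in control 4 and at 1.78, 2.52 and 2.64 CPM in controls 1 to 3. The endothelial sums of 125 to 247 and 123 to 195 CPM overlapped. Whether these cells have a part in the Il17re difference was not tested.

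The third gene of this signalling group, Irak2, encodes a kinase-like adaptor below the IL-1 receptor. It was among the most variable neighbours of at least 5 CPM. Irak2 ran from 5.65 CPM in control 4 to 16.7 CPM in SmoM2-labelled library 2. Its means were 11.7 ± 4.56 and 12.8 ± 4.21 CPM, with a log2 fold change of 0.13 (SE 0.35). Genes of the IL-17 and IL-1 receptor pathway outside the locus (20 tested) were 11 higher and 9 lower with 0 called and a median of 0.03. Of these, 2 had an unadjusted edgeR p under 0.05 (Irak1 and Irak3, both higher), and 1 had no overlap of the groups (Irak1). The shares over all genes tested are 3.75% and 2.44%. Irak1 and Irak3 were named after their values were seen. Nfkbiz and Nfkbia, which restrain or redirect NF-kB, averaged 845 ± 159 and 795 ± 202 CPM and 483 ± 252 and 405 ± 102 CPM.

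Vhl and Atg7, which control the response to oxygen and autophagy, both had lower SmoM2-labelled means. Vhl, the subunit that marks hypoxia-inducible factors for destruction, was at 21.3, 20.1, 18.5 and 12.7 CPM in controls and at 20.9, 14.2, 12.8 and 11.7 CPM in SmoM2-labelled libraries. Control 4 was low and SmoM2-labelled library 1 high, and the groups overlapped, with means of 18.2 ± 3.83 and 14.9 ± 4.16 CPM and a log2 fold change of −0.29 (SE 0.22, interval −0.80 to 0.22). Leaving out SmoM2-labelled library 1 gave the largest value for Vhl, −0.50, again without passing. The 20 tested genes of the list of hypoxia-inducible factors and their targets were 8 higher and 12 lower, 0 called, with a median of −0.02. Ldha and P4ha1, a glycolytic enzyme and a collagen hydroxylase that these factors induce, averaged 188 ± 11.5 and 196 ± 19.1 CPM and 172 ± 28.6 and 209 ± 56.5 CPM.

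Atg7, the enzyme that activates the ubiquitin-like proteins of autophagy, was at 33.2, 32.6, 37.0 and 16.6 CPM in controls 1 to 4 and at 26.6, 20.2, 18.4 and 23.9 CPM in SmoM2-labelled libraries. Controls 1 to 3 were above all 4 SmoM2-labelled libraries and control 4 was below all of them. The log2 fold change was −0.42 (SE 0.24, interval −0.97 to 0.13, adjusted p 0.9999 in edgeR), and without control 4 it was −0.62 with an adjusted p of 0.751. Of the 17 tested autophagy partners 7 were higher and 10 lower with 0 called and a median of −0.03. Sqstm1, an autophagy receptor, averaged 552 ± 55.3 and 563 ± 46.5 CPM, and Gabarapl1, a substrate of Atg7, 214 ± 24.2 and 207 ± 18.6 CPM.

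Syn2 had the largest difference among neighbours of at least 5 CPM, and it was also the most variable of them. Syn2 encodes a synapsin, a coat protein of synaptic vesicles, and was at 29.1, 41.1, 50.6 and 18.7 CPM in controls and at 16.0, 34.5, 27.6 and 19.9 CPM in SmoM2-labelled libraries. Control 4 fell among the lowest SmoM2-labelled libraries, and SmoM2-labelled library 2 exceeded control 1. The means of 34.9 ± 13.9 and 24.5 ± 8.23 CPM gave a log2 fold change of −0.51 (SE 0.33, interval −1.27 to 0.26, adjusted p 0.9999 in edgeR), which was −0.28 without control 3 and −0.92 without the 3 libraries high in Gt(ROSA)26Sor. Markers of neurons and Schwann cells summed to 15.8 to 30.6 CPM in controls and 22.3 to 27.1 CPM in SmoM2-labelled libraries. Timp4, a gene inside Syn2 on the other strand that shares 90 exonic bases with it, averaged 1.005 and 1.47 CPM.

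Of the 4 neighbours that build actin branches or handle signalling (Arpc4, Brk1, Camk1 and Mtmr14), 2 had a higher and 2 a lower SmoM2-labelled mean, and 0 passed the test. Within groups Brk1 and Camk1 varied little (coefficients of variation 4.497% and 6.76%), and Arpc4 and Mtmr14 more (15.9% and 16.4%). Brk1 was at 62.2, 61.1, 57.5 and 65.4 CPM in controls and at 62.7, 61.9, 60.5 and 57.8 CPM in SmoM2-labelled libraries. Its highest library was 1.14 times its lowest, with a log2 fold change of −0.02 (SE 0.07, interval −0.18 to 0.14). Arpc4 was at 79.4, 59.6, 62.2 and 50.7 CPM in controls and at 60.6, 54.7, 63.9 and 50.1 CPM in SmoM2-labelled libraries, and control 1 alone lay outside the range of the other group on the high side. The Arpc4 log2 fold change was −0.14 (SE 0.14, interval −0.46 to 0.19). Arpc4 shares 283 exonic bases with Ttll3 on the same strand, so part of their split is uncertain.

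Camk1, a calcium and calmodulin dependent kinase, was at 59.6, 70.5, 68.9 and 59.4 CPM in controls and at 65.9, 67.3, 63.2 and 67.6 CPM in SmoM2-labelled libraries. The SmoM2-labelled values lay inside the range of the controls (log2 fold change 0.03, SE 0.08, interval −0.16 to 0.22). Of the other 17 tested genes of the Arp2/3 and WAVE complexes, 14 were higher and 3 lower with 0 called and a median of 0.07. Wasf2 and Nckap1, WAVE subunits, averaged 247 ± 47.4 and 267 ± 15.2 CPM and 167 ± 6.89 and 174 ± 8.95 CPM.

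Of the 6 neighbours of the secretory pathway and mitochondria, 4 had a higher and 2 a lower SmoM2-labelled mean, and 0 passed the test. Emc3 was at 82.7, 71.3, 67.6 and 75.4 CPM in controls and at 81.1, 79.7, 74.7 and 72.7 CPM in SmoM2-labelled libraries, all 4 of the latter within the control range (log2 fold change 0.05, SE 0.08, interval −0.14 to 0.24). Sec13 was at 76.3, 69.1, 67.0 and 62.3 CPM in controls and at 77.2, 70.9, 55.0 and 66.4 CPM in SmoM2-labelled libraries. Here SmoM2-labelled library 3 was the lowest of the 8 and library 1 the highest, with a log2 fold change of −0.03 (SE 0.12, interval −0.29 to 0.23). The 15 tested partners of Sec13 in vesicle coats and in the GATOR2 complex were 11 higher and 4 lower, 0 called, with a median of 0.03. Sar1a and Sec24d, parts of the same coat, averaged 264 ± 20.3 and 270.2 ± 21.9 CPM and 231 ± 21.9 and 254 ± 34.4 CPM. Creld1, a membrane protein of the endoplasmic reticulum, averaged 45.5 ± 8.79 and 49.9 ± 9.21 CPM, and Tamm41, a mitochondrial enzyme of cardiolipin synthesis, 4.79 ± 0.733 and 4.46 ± 0.551 CPM. Cidec, a lipid droplet protein of fat cells, ranged from 0.708 to 4.83 CPM, while 7 of 7 tested genes of the adipocyte list, Cidec among them, were higher in SmoM2-labelled libraries and 0 were called.

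Mkrn2, a zinc finger ubiquitin ligase, was at 34.1, 30.6, 32.7 and 34.6 CPM in controls and at 33.3, 34.1, 36.5 and 34.0 CPM in SmoM2-labelled libraries. Its groups overlapped and its log2 fold change was 0.06 (SE 0.07, interval −0.11 to 0.23). Tatdn2, a nuclease-like protein, had the smallest difference of the 33, at 28.5 ± 3.19 and 28.5 ± 3.13 CPM (log2 fold change 0.00, SE 0.11). Cand2, an exchange factor of cullin ligases, averaged 14.6 ± 4.80 and 12.8 ± 1.83 CPM. Mtmr14, Ttll3 and Rpusd3, a lipid phosphatase, a tubulin ligase family member and a pseudouridine synthase family member, had log2 fold changes of 0.06, 0.06 and −0.19. The rarest tested neighbours, Cpne9, Prrt3, Ghrl and Hrh1, averaged 0.248, 0.366, 0.333 and 0.434 CPM, and Lhfpl4 3.86 CPM. Their intervals were wide, that of Cpne9 running from −0.40 to 1.82.

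Among repair genes, Ogg1, the glycosylase that removes oxidised guanine, was at 3.47, 4.90, 5.16 and 8.49 CPM in controls and at 6.48, 3.52, 6.34 and 4.90 CPM in SmoM2-labelled libraries. Control 4 was highest and control 1 lowest, the other group lying between them, with a log2 fold change of −0.05 (SE 0.31, interval −0.75 to 0.64). Ogg1 shares 232 exonic bases with Camk1, which averaged 64.6 and 66.0 CPM on the other strand, so reads from that overlap cannot be told apart. Without control 4 the value for Ogg1 was 0.24, of the opposite sign. Fancd2, a central protein of crosslink repair, averaged 1.05 ± 0.0355 and 1.09 ± 0.537 CPM. Its 16 tested partners in the Fanconi anaemia pathway were 6 higher and 10 lower, 0 called, with a median of −0.05, and Fancc averaged 51.4 ± 18.7 and 32.0 ± 3.33 CPM and Slx4 22.4 ± 3.14 and 20.3 ± 1.25 CPM.

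**Figure D3:**
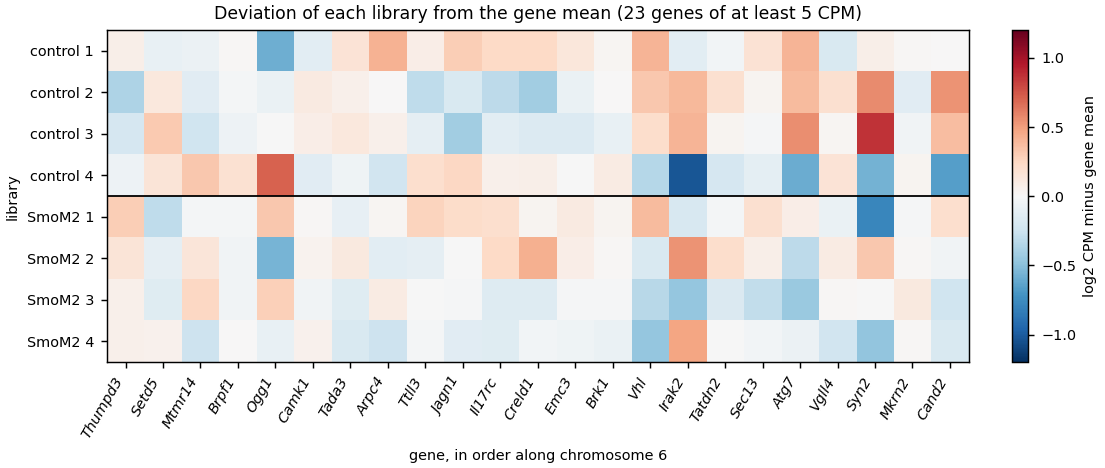
Log2 CPM of each library minus the gene mean, for the 23 neighbours of at least 5 CPM in order along chromosome 6, with controls above the line and SmoM2-labelled libraries below it. Brk1, Mkrn2, Brpf1 and Camk1 are nearly flat, while Irak2, Syn2, Ogg1, Cand2 and Atg7 vary by library within both groups.

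The neighbours differed widely in how much they varied between libraries of a group. The within-group coefficient of variation of the 23 genes of at least 5 CPM had a median of 13.5%, beside 13.8% over all genes of that level. It ran from 4.497% (Brk1) and 4.71% (Mkrn2) to 35.9% (Irak2) and 38.5% (Syn2). Control 4 was the lowest of the 8 libraries for 5 of the 23 genes and the highest for 4, where it was lowest for 20.3% and highest for 21.8% of all genes of that level. SmoM2-labelled library 4 was lowest for 5 and highest for 0 (15.0% and 11.0% over all genes), control 2 lowest for 5 and highest for 3 (12.7% and 11.4%), and control 1 lowest for 1 and highest for 5 (10.6% and 10.3%). SmoM2-labelled library 2 was lowest for 0 and highest for 4 (9.21% and 10.4%). The 3 libraries highest in Gt(ROSA)26Sor were also the 3 highest for 1 of the 33 tested neighbours, Vgll4, against 0.645% of all genes tested.

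Some neighbours that share a start region had unlike levels. Emc3 and Fancd2 lie 29 bases apart on opposite strands, start to start, and had levels per exon length of 76.9 and 0.457. Tada3 and Arpc4 lie 231 bases apart in the same arrangement, with levels per exon length of 15.8 and 88.5. At the locus itself the CPM of Setd5 varied 1.53-fold over the libraries, while Gt(ROSA)26Sor varied 17.8-fold. On the scale of level per exon length Setd5 was at 38.4 (30.1 to 45.0) and Gt(ROSA)26Sor at 40.9 (6.97 to 117).

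Medians by distance from Rosa26 stayed near 0 in most windows. Within 5 Mb on either side, 99 genes other than Gt(ROSA)26Sor were tested, of which 50 were higher and the median log2 fold change was 0.00. An unadjusted edgeR p under 0.05 was seen for 3 of them (Il17re, Washc2 and Gm7292). No overlap of the groups was seen for 3 (Il17re, Gm7292 and Gm43863). The shares over all genes tested are 3.75% and 2.44%, so both counts are near the background. The genes in brackets were named after their values were seen. On the Setd5 side the 21 genes tested within 0.5 Mb were 12 higher and 9 lower (median 0.03), the 13 genes from 0.5 to 1 Mb 8 higher and 5 lower (0.08), and the 4 genes from 1 to 2 Mb 1 higher and 3 lower (−0.10). Farther out the 17 genes from 2 to 3 Mb and the 23 genes from 3 to 5 Mb had medians of 0.00 and 0.01. On the Thumpd3 side 5 genes were tested within 0.5 Mb, 1 higher (Thumpd3) and 4 lower (median −0.14), among them Srgap3, a GTPase-activating protein, at 17.6 and 15.2 CPM. That median was 0.03 without control 2. DESeq2 and the fit with no filter on low counts also take in genes of this window outside these 5. Their medians were −0.56 and −0.45. On that side the 5 genes from 0.5 to 1 Mb had a median of −0.06, and none was tested from 1 to 2 Mb. The 1 gene from 2 to 3 Mb (Grm7) was at 0.88, and the 10 genes from 3 to 5 Mb had a median of 0.00. Of the 16 tested genes inside the span that are not among the 35, 11 were higher, with a median of 0.18 and 0 at an unadjusted p under 0.05.

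**Figure D4:**
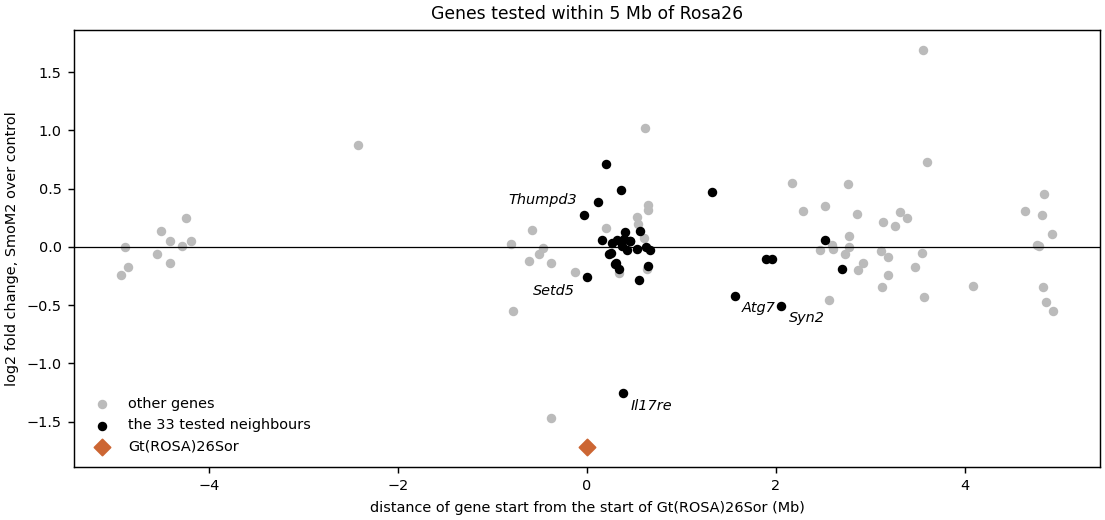
Log2 fold change of every gene tested within 5 Mb of Rosa26 against the distance of its start from the start of Gt(ROSA)26Sor, the 33 tested neighbours in black and other genes in grey. Most points lie near 0, and few genes were tested from 1 to 3 Mb on the Thumpd3 side. Il17re (−1.26) lies at 0.381 Mb, and Gt(ROSA)26Sor (−1.72) at 0.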

How the data were processed

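RNA from 8 sorted cell samples was analysed, 4 control and 4 SmoM2. The authors deposited expected counts per Ensembl gene, made with StringTie per the submitters' processing notes, which list the build mm10 and also HISAT, FastQC and DESeq. These were whole numbers and were used as given. The authors' second table gives, per the file headers, normalised mean signal per group, its ratio (fold change), the log2 ratio and p-values. Libraries carry the numbers of the column names, which no label ties to an animal. The most frequent count above 0 was 5 in all 8 libraries, so 1 fragment was taken as 5 units, an assumption.

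edgeR 4.0.16 (R 4.3.3, glmQLFit with robust dispersion, glmQLFTest, TMM, filterByExpr) was fitted to the whole table, with the group as the sole term and Benjamini-Hochberg adjustment over 20162 genes, called under 0.05. The SE was obtained by dividing the size of a log2 fold change by the root of its F statistic, and intervals are 95%. The fit was tested on simulated data, in which the changed genes had at least 5 CPM. It called 6 of 50 genes changed 1.5-fold and 23 of 50 changed 2-fold. Of those changed 3-fold and 4-fold it called 44 and 45 of 50. Genes of every fold were changed in the same simulated table, and many true changes make an adjusted p under 0.05 easier to reach. The rate for a single changed gene can therefore be lower. Alternatives were DESeq2 1.42.0, limma 3.58.1 (voom), other scalings and filters, counts divided by 5, sex as a covariate, and each library left out. Leaving out the 3 libraries high in Gt(ROSA)26Sor was added after seeing the data, and in that fit group and sex are partly mixed for every gene. Pairs of libraries differed beyond sampling noise (chi-square over degrees of freedom 20.9 to 95.3), so all 8 were kept. Lengths are union exons of GENCODE release M21. The neighbours, the partner and marker lists and the alternatives were chosen with earlier results of these data known. Values in every library are given for Setd5, Thumpd3 and Gt(ROSA)26Sor, for neighbours whose groups do not overlap or whose unadjusted edgeR p or DESeq2 adjusted p is under 0.05, for the 5 largest changes at 5 CPM or more, for the 5 highest levels per length, and for the highest CPM of each functional group. Of each partner list the 2 genes of highest CPM are named, and 1 of these is not reported here.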

Additional observations from a re-analysis of the deposited data

Results flagged for a closer look

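Gt(ROSA)26Sor in SmoM2-labelled library 2, at 26.7 CPM, was far from the other 3 SmoM2-labelled libraries, which lay between 3.30 and 4.16 CPM. The gap took 0.963 of the range of the group, above the 95% critical value of Dixon for 4 samples. It was the 1 value that stood apart in this way among 68 groups checked (33 tested neighbours and Gt(ROSA)26Sor in each of 2 groups), where chance gives about 1 in 20. The number of inserted Rosa26 alleles in each animal is not in the labels used here, and its part in the difference was not tested.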

How the results depend on the processing

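Under all 17 alternatives 0 neighbours were called, between 12 and 17 of them were higher, and their median log2 fold change lay between −0.07 and 0.02. DESeq2 called 67 genes of the whole table, and leaving out 1 library at a time gave 0 to 1. Of 255 single-gene values under alternatives (14 neighbours and Gt(ROSA)26Sor), 242 kept their direction and 13 changed sign, 0 of them past the threshold. Those were Ogg1, Il17rc, Brk1, Camk1 and Sec13, all near 0. Without the 3 libraries high in Gt(ROSA)26Sor they gave 0.45 for Ogg1, −0.093 for Il17rc and 0.0068 for Brk1. Leaving out each library gave −0.22 to 0.24 for Ogg1, −0.022 to 0.17 for Il17rc, −0.054 to 0.011 for Brk1, −0.0067 to 0.072 for Camk1 and −0.10 to 0.057 for Sec13, and the cause was not tested. Of 288 medians of partner lists and distance windows, 23 moved by more than the spread of 0.10 between libraries. No paired analysis was possible because the labels give the animals no shared replicate numbers. At group means of 40.1 (control) and 17.1 (SmoM2-labelled) fragments per library, depth limits the value for Il17re.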
